A study of Mus musculus with 31 samples.

Results

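The comparison describes what 14 days as embryoid bodies (EBs) changed in mouse ES cells, measured from the culture that seeded them. It sets the 6 arrays of EBs at day 14 against the 6 arrays of ES cells on gelatin at day 0, which are 12 of the 31 arrays of the series, and covers every probe set other than the array's own controls. The rest of the series is made up of ES cells sorted by FACS on an Oct4 GFP reporter (6 arrays) and of EBs harvested at day 4 (7 arrays) or day 8 (6 arrays). They entered the same linear model and are used here only to show where a gene stood before or between the compared groups.

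All cells were B6 mouse ES cells, and every array measured RNA that had been amplified linearly in 2 rounds on an Affymetrix MgU74Av2 chip. The gelatin group had been grown on mouse embryonic fibroblast feeders in serum with LIF, depleted of feeders by letting these settle on gelatin, and then passaged once on gelatin. The day 14 group was made from such gelatin cells by withdrawing LIF in non-adherent dishes, where the cells aggregate. Both groups therefore share a history on feeders, and an EB array averages all cell types in the aggregate. In such bulk RNA, fewer cells of a type and less RNA per cell cannot be told apart. The study's methods list 12 days where the labels give 14, and the labels were followed. They state 6 biological samples for each time point.

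ES cells kept in LIF express a network of transcription factors around OCT4, and lose it when LIF is withdrawn. EBs form an outer layer of visceral endoderm, which secretes lipoproteins and carrier proteins and takes up protein from its surroundings as the yolk sac does, around an inner mass that gives rise to mesoderm, neural cells and beating cardiac muscle. Cells spread on a stiff surface carry actin stress fibres and lay down matrix, and feeder fibroblasts do both strongly.

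Values are the signal that the authors computed for each probe set, on a linear scale in arbitrary units. A log2 change is day 14 minus gelatin with its SE from limma, n = 6 arrays per group unless stated, and a gene was called higher or lower at an adjusted p under 0.05. Each gene is represented by 1 probe set, the brightest of those that carry its symbol alone. Of 80 other probe sets of the called genes that the naming rule below picked, 48 were called the same way, 30 were not called and 2 were called the opposite way. Levels of different genes are not compared, because a signal depends on the probes.

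Summed ES markers were lower and summed visceral endoderm markers higher at day 14. Taken one by one, 5 of the 8 ES markers were called lower, and Nanog, Zfp42 and Klf4 were not called. The summed signal of 8 ES markers, among them Pou5f1, Nanog and Dppa4, ran from 21734 to 25657 on gelatin and from 6059 to 13540.0 at day 14. Gelatin cells were not the highest in it, with 35331 to 44324 in sorted ES cells and 19778 to 34970.0 at day 4. That of 7 visceral endoderm markers, among them Afp, Apob and Cubn, ran from 1943 to 2540 on gelatin and from 30307 to 39168 at day 14. Gelatin and day 14 did not overlap in either sum.

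Gelatin arrays stood apart from day 14 arrays in their RNA and in the summed signal of fibroblast genes. Every change below is to be read beside that. The 3'/5' ratio of the Gapdh control probe sets, which grows as RNA or its amplified copies get shorter, was 5.22 ± 1.55 on gelatin and 2.43 ± 0.219 at day 14 (SD, n = 6 each), with no overlap (exact permutation test, two-sided, p = 0.00216, adjusted over 2 tests p = 0.00216, the smallest p that 6 against 6 arrays allow). The beta-actin ratio was 5.29 ± 1.22 and 2.48 ± 0.311 (exact permutation test, two-sided, p = 0.00216, adjusted p = 0.00216). Within the gelatin group, replicates 3, 4 and 6 had ratios of 6.31 to 6.85 for Gapdh and replicates 1, 2 and 5 of 3.48 to 4.04. The summed signal of 26 fibroblast genes outside the matrix was 41446 to 66377 on gelatin, highest in replicates 1 and 2, against 20982 to 24720.0 at day 14 and 22921 to 29028 in sorted ES cells. Of these 26 genes 12 were lower and 7 higher at day 14, with a median log2 change of -0.04. Only Fap sat at the floor of the scale on every gelatin array. Bright genes weigh most in the sum. The mean of Lgals1 was 13562 on gelatin and 4436 at day 14, and that of Anxa1 was 12161 and 2292. The part of RNA quality and of fibroblast RNA in the results was not tested. Counts without these gelatin arrays are given for all probe sets and for the lists discussed at length. Leaving arrays out cannot remove either difference. Replicates 1, 2 and 5 had Gapdh ratios of at least 3.48, against at most 2.68 at day 14. Replicates 3 to 6 had fibroblast sums of 41446 to 46482, against at most 24720 at day 14.

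**Figure D1:**
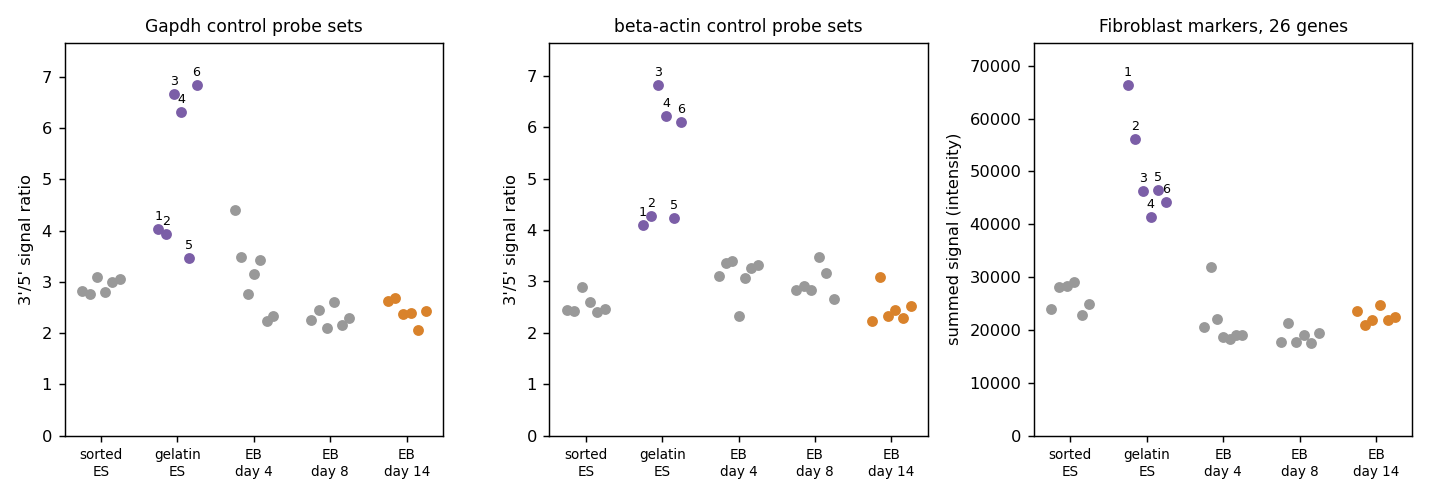
3'/5' signal ratio of the Gapdh and beta-actin control probe sets and summed signal of 26 fibroblast genes, 1 point per array, for the 5 groups (numbers on the gelatin points are replicate numbers). The gelatin points lie above the day 14 points in each panel, with replicates 3, 4 and 6 highest in the ratios and replicates 1 and 2 highest in the fibroblast sum.

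Slightly more genes fell than rose over the 14 days. Among the 12422 probe sets tested, 2712 rose, 463 of these by 2-fold or more, while 2878 fell, 402 of these by 2-fold or more. Of 8251 genes, 1882 were higher (22.8%) and 1989 lower (24.1%), 310 and 279 by 2-fold or more, and the median change over all genes was 0.00. The count of every gene list below is to be read beside these shares. Every day 14 array was above every gelatin array at 1236 genes (15%) and below every gelatin array at 1373 (16.6%). Centring each array on its median shifted the split of called probe sets from 48.5% to 39.8% higher, with 2200 higher and 3332 lower. Without gelatin replicates 3, 4 and 6 the probe set counts were 1905 higher and 2244 lower, and without replicates 1 and 2 they were 2693 and 2621. Leaving out replicates 1, 2 and 5, those with the lower ratios, gave 2410 and 2613.

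**Figure D2:**
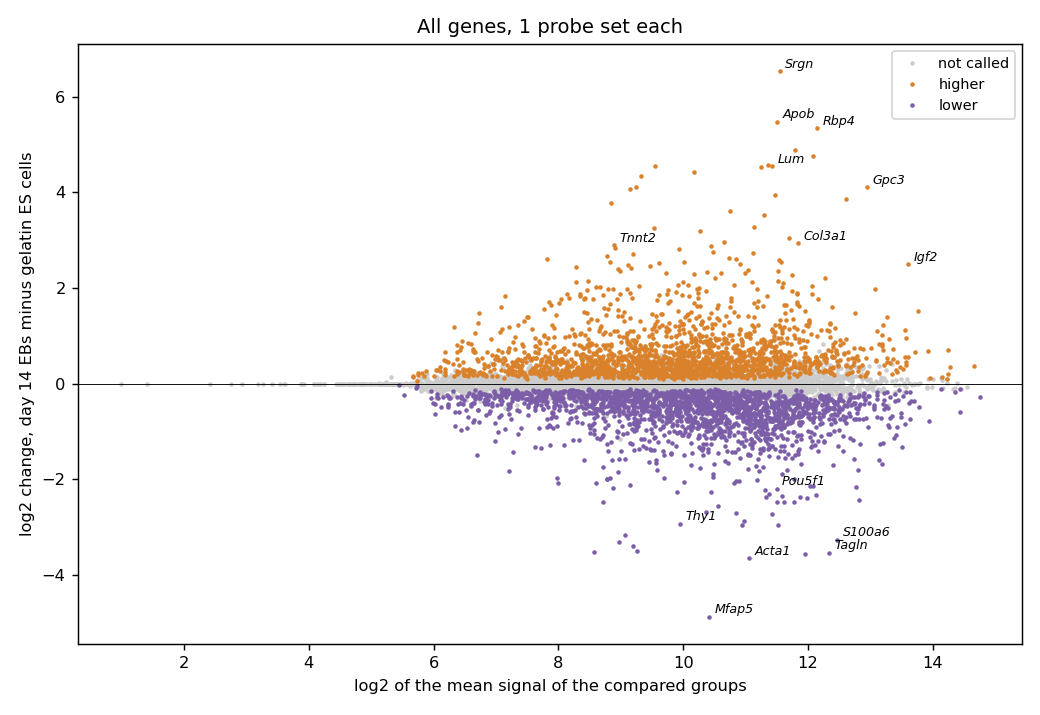
Log2 change from gelatin ES cells to day 14 EBs against the log2 of the mean signal of the compared groups, 1 point per gene (8251 genes), coloured by the call at adjusted p under 0.05. Srgn, Apob and Rbp4 lie at the top, and Mfap5, Acta1 and Tagln at the bottom.

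The largest fall was that of Mfap5, a glycoprotein of elastic microfibrils. Its signal spanned 2132 to 3375 (median 2631) on gelatin and 82.9 to 98.4 (median 88.0) at day 14, a log2 change of -4.87 ± 0.25 (adjusted p = 1.98e-14), or 29.2-fold lower. A dimmer Mfap5 probe set fell by only 0.23 on the log2 scale. The 20 largest falls whose arrays did not overlap also held the actin gene Acta1, the collagen cross-linking enzyme gene Lox, the actin-binding gene Tagln, the chemokine genes Ccl7 and Ccl2, the cell cycle inhibitor gene Cdkn2b, the thrombin receptor gene Thbd, the calcium-binding gene S100a6 and the secreted matrix-associated gene Ccdc80. They went on with Myl9, Fbln2, Thy1, Dppa2, Anxa3, Tnc, Igfbp7, the fatty acid transporter gene Slc27a2, Bdnf, which encodes a neurotrophin, and Dppa4. Only Dppa2 and Dppa4 of the 20 belong to the pluripotency list.

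Several of these falls left almost no signal at day 14. Ccl7 had 476 to 1088 (median 625) on gelatin and 48.3 to 60.5 (median 48.7) at day 14, with 5 of the 6 day 14 arrays at or below the floor of 59.6 under which values were not told apart. Ccl2, which draws monocytes, spanned 1009 to 1472 (median 1029.6) on gelatin and 83.9 to 108 (median 101) at day 14. Cdkn2b spanned 918 to 1431 (median 1038) on gelatin and 83.1 to 119.6 (median 102) at day 14. In each of these genes the lowest gelatin array lay several-fold above the highest day 14 array. S100a6 remained readily measured, with 9079.6 to 13248 (median 9582) on gelatin and 805 to 1616 (median 1036) at day 14, and changed by -3.27 ± 0.26.

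Genes of the smooth muscle and stress fibre apparatus fell more often than they rose. Of 26 measured, 15 were lower, 4 higher and 7 were not called, with a median log2 change of -0.29, against 24.1% lower and 22.8% higher among all genes. Tagln (transgelin), which binds actin filaments in smooth muscle and spread fibroblasts, spanned 7937 to 12577 (median 8864) on gelatin and 712 to 992 (median 785) at day 14, and changed by -3.54 ± 0.12 (adjusted p = 1.10e-17), or 11.6-fold lower. Myl9, the regulatory light chain of smooth muscle and non-muscle myosin, spanned 2139.6 to 5059 (median 3401) on gelatin and 355 to 567 (median 428) at day 14, and changed by -2.95 ± 0.17 (adjusted p = 1.44e-13). In both genes all day 14 arrays lay far below all gelatin arrays.

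Acta2, the smooth muscle actin of stress fibres and myofibroblasts, fell as well. Its signal spanned 10927 to 18659 (median 13555) on gelatin and 3342 to 5949.5 (median 4309.5) at day 14, and the log2 change was -1.69 ± 0.26 (adjusted p = 3.91e-06). Cnn2 (calponin 2), which binds actin and restrains myosin, spanned 2819 to 3698 (median 2914) on gelatin and 652 to 836 (median 754) at day 14, and changed by -2.04 ± 0.13. The arrays of the groups did not overlap for either gene.

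Of the genes for proteins that cross-link stress fibres or tie them to adhesions, the alpha-actinin and vinculin genes fell, and Flna (0.06) and Zyx (0.01) were not called. Actn1 (alpha-actinin 1) spanned 14179.7 to 18468 (median 16916) on gelatin and 5761 to 8979 (median 6532) at day 14, a log2 change of -1.32 ± 0.15, and Actn4 changed by -1.01 ± 0.08. Vcl (vinculin), which links actin to integrin adhesions, spanned 3800.1 to 7811 (median 4544) on gelatin and 2248 to 2608 (median 2376) at day 14, and changed by -1.07 ± 0.23 (adjusted p = 4.46e-04). Of the other probe sets of Actn1, 1 fell by 1.98 on the log2 scale and 1 was not called (-0.04). The motor gene Myh9 (-0.90), the tropomyosin gene Tpm1 (-0.86) and the PDZ-LIM gene Pdlim7 (-0.90) fell by less than 2-fold. A further Pdlim7 probe set rose by 0.19, and 2 were not called.

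The remaining falls of the list were those of Myh11 (-0.81, the heavy chain of mature smooth muscle, at percentile 9.64 of signal), Tagln2 (-0.36), Tpm4 (-0.32), Cnn3 (-0.27) and Cnn1 (-0.26). Arrays of the groups overlapped for Cnn1 and Cnn3. Tpm4 was not called without gelatin replicates 1 and 2 (-0.19). The 4 genes of the list that rose were Actg2, the smooth muscle gamma-actin, Csrp1, Csrp2 and the intermediate filament gene Des. Actg2 spanned 1424 to 2969 (median 1941) on gelatin and 3304 to 5283 (median 3985) at day 14, and changed by 1.06 ± 0.29 (adjusted p = 0.00322). It was not called without gelatin replicates 3, 4 and 6 (0.74). The list had 15 lower genes without these replicates and 14 without replicates 1 and 2.

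Striated muscle genes were called higher far more often than lower, with 1 large exception. Of 24 sarcomere genes measured 13 were higher, 1 lower and 10 not called, and the median log2 change was 0.30. Among all genes 22.8% were higher and 24.1% lower. By signal, 13 of the 24 genes, called or not, lay in the dimmest 40% of probe sets. Without gelatin replicates 3, 4 and 6 the count of higher genes was 14, and without replicates 1 and 2 it was 13. Leaving out replicates 1, 2 and 5 gave 11. Tnnt2 (cardiac troponin T), which anchors the troponin complex to tropomyosin, spanned 103 to 129 (median 108) on gelatin and 667 to 1209 (median 739) at day 14, and changed by 2.89 ± 0.25 (adjusted p = 3.74e-10). The ventricular and atrial myosin light chain genes Myl3 (1.40 ± 0.21), Myl4 (1.11 ± 0.16) and Myl7 (1.09 ± 0.14) rose, as did the calcium-binding troponin gene Tnnc1 (0.97 ± 0.15). In each of these 5 genes all day 14 arrays lay above all gelatin arrays. Tnnt2 (percentile 34.6 of signal), Tnnc1 (32.8) and Myl3 (19.2) were dim, and Myl4 (46.4) and Myl7 (42.4) were brighter. The summed signal of the 24 genes, which includes Acta1, overlapped between the groups. It ran from 14061 to 18761 on gelatin and from 14088 to 17210 at day 14.

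Acta1, the skeletal muscle actin, was the exception. Its signal spanned 2934 to 6043 (median 3562) on gelatin and 233 to 396 (median 314) at day 14, a log2 change of -3.65 ± 0.28 (adjusted p = 3.27e-11), or 12.5-fold lower. Actc1, the cardiac actin, spanned 1066 to 2244 (median 1433) on gelatin and 1585 to 2623 (median 1962) at day 14 with overlapping arrays, and its change of 0.48 ± 0.20 was not called (adjusted p = 0.0555, interval 0.06 to 0.90). A dimmer Actc1 probe set rose by 2.81 ± 0.31 (adjusted p = 2.18e-08), and without gelatin replicates 1 and 2 the brighter one passed as well (0.67). The muscle actins have nearly the same coding sequence, and how well these probe sets tell them apart is not given in the sources used here.

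Of the heart transcription factor genes 4 of 7 measured were higher and none was lower in limma (0 lower also at an unadjusted p under 0.05). Isl1, a LIM-homeobox factor of the second heart field and of motor neurons, spanned 97.5 to 122 (median 108) on gelatin and 239 to 441 (median 302) at day 14, and changed by 1.55 ± 0.14. It is dim throughout (percentile 18.6). Smyd1 changed by 0.49 ± 0.09, Nkx2-5 by 0.23 ± 0.09 and Hand1 by 0.15 ± 0.05. Nkx2-5 overlapped between the groups, and its call was lost in the fit with a replicate block (adjusted p = 0.06), under both other scalings and without either set of gelatin arrays. Hand1 was not called with each array centred on its median (0.11) or without gelatin replicates 3, 4 and 6 (0.08), but a dimmer Hand1 probe set rose by 0.96. A dimmer Smyd1 probe set was not called (0.12). Mef2c was not called (0.19), while its dimmer probe sets were called higher (1.27, 0.28 and 0.22).

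**Figure D3:**
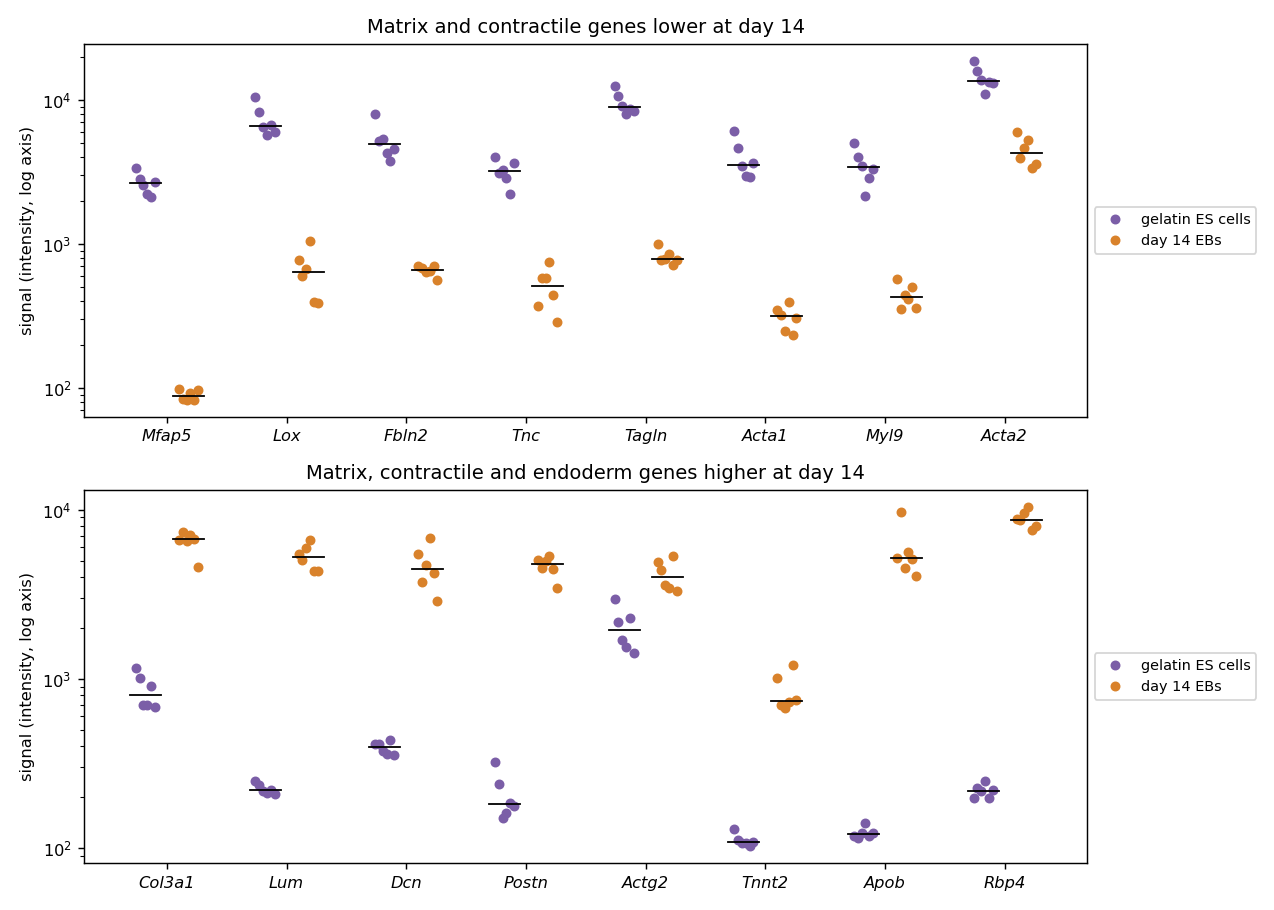
Signal on a log axis for 16 genes in the 6 gelatin ES arrays and the 6 day 14 EB arrays (points, with the median as a bar). For each gene shown the groups do not overlap, with the upper panel lower and the lower panel higher at day 14.

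Some contractile genes of each direction hold the same promoter element. The CArG box, which serum response factor binds to drive actin and muscle genes, was searched for in the 250 bases before the start of each gene in the RefSeq promoter table (GRCm38.p6). The element reads the same on both strands, and the search was chosen with the values known. It was held by 439 of 27025 genes (1.62%) and by 113 of the 6576 genes that are both measured and in the table (1.72%). Of the 44 contractile genes that are both, 10 held it (22.7%), and these lists are themselves made up of actin and muscle genes. The 4 that fell and hold the element are Acta1, Myl9, Cnn2 and Vcl. Of the 10, 2 rose, Myl3 and Myl7, and the other members with it, Actc1, Ldb3, Myl6 and Myom1, were not called. The stretches below are shown because they place the same element in genes that fell and in genes that rose. They are written 5′ to 3′ along the gene with the element in capitals, and each ends before the start of the transcript.
Acta1, chr8:123894814-123894873, minus strand: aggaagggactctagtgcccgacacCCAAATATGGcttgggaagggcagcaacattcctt
Myl9, chr2:156775278-156775337, plus strand: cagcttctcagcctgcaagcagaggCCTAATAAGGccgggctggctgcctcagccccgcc
Cnn2, chr10:79988519-79988578, plus strand: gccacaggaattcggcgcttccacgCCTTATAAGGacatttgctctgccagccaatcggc
Vcl, chr14:20929148-20929205, plus strand: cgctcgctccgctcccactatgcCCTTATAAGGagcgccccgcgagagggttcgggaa
Myl3, chr9:110763568-110763627, plus strand: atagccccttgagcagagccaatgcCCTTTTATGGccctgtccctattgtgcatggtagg
Myl7, chr11:5898809-5898868, minus strand: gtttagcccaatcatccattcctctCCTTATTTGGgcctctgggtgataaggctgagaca

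The box lies 73 bases before the start of Acta1, 161 before Myl9, 56 before Cnn2, 227 before Vcl, 85 before Myl3 and 61 before Myl7. Cnn2 and Vcl share the same 10 letters. A match is only a run of letters in this window and says nothing about binding in these cells. Tagln, with the largest fall of the smooth muscle list, has no entry in the promoter table.

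Matrix genes split into falls and rises of similar number. Over 5 lists that hold 77 measured genes, 27 were higher, 24 lower and 26 not called. Calls over all genes were also nearly even, with 22.8% higher and 24.1% lower. The median log2 change of the 77 genes was 0.03, and 16 fell by 2-fold or more. The basement membrane list among them also holds the receptor genes Thbd and Pth1r. Every one of the 5 lists held genes of both directions. Without gelatin replicates 1 and 2, 21 of the 24 were again lower, all but Col5a2, Fn1 and Ltbp2, and without replicates 3, 4 and 6, 23 were, all but Timp2. Both other scalings kept all 24. The 27 rises were less steady, with 22 kept on median centring, 23 on quantile normalization, and 23 without either set of gelatin arrays.

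Among 19 microfibril and matricellular genes 9 were lower, 7 higher and 3 not called. The higher count was 4 with each array centred on its median and 5 with quantile normalization. Beside Mfap5, Fbln2 (fibulin 2), which bridges microfibrils and basement membranes, spanned 3792 to 7971 (median 4905) on gelatin and 563 to 704 (median 662) at day 14, and changed by -2.95 ± 0.17 (adjusted p = 1.75e-13). Tnc (tenascin C), an adhesion-modulating glycoprotein of wounds and stroma, spanned 2216 to 4036 (median 3187) on gelatin and 289 to 752 (median 509) at day 14, and changed by -2.71 ± 0.49 (adjusted p = 4.83e-05). The day 14 arrays of Tnc differed among themselves by more than those of Fbln2, and neither gene's groups overlapped.

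The matricellular genes Ccn1 and Ccn2, which stretched and adherent cells express through YAP and serum response factor, fell by 2.92-fold and 2.08-fold. Ccn1 spanned 4084 to 5754 (median 4573) on gelatin and 1255 to 2095 (median 1558) at day 14, and Ccn2 spanned 5473 to 8526 (median 6931) on gelatin and 2126 to 4446 (median 3515) at day 14. Mgp, an inhibitor of calcification, changed by -1.29 ± 0.21, and Ltbp1, which holds latent TGFβ in the matrix, by -1.08 ± 0.13. Ltbp2 (-0.31 ± 0.11) and Fn1, the fibronectin gene (-0.28 ± 0.11), fell little. Fn1 lost its call on leaving out any of 4 single arrays, day 14 replicates 5 and 6 and gelatin replicates 1 and 2 (-0.26 to -0.24).

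The rises of the same list were led by Tgfbi, a secreted protein induced by TGFβ (1.82 ± 0.15, from 131 to 155 (median 140.2) to 376 to 634 (median 515)), of which a dimmer probe set was not called. Vcan (versican), a large proteoglycan of provisional matrix, changed by 1.18 (adjusted p = 0.000104). Mfap2, another microfibril glycoprotein, changed by 0.95 ± 0.07, opposite to Mfap5. Mfap4 (0.24 ± 0.09) overlapped between the groups and was not called under either other scaling.

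Fibrillar collagen genes and the enzymes that process them were 7 higher, 4 lower and 8 not called of 19. Lox (lysyl oxidase), which cross-links collagen and elastin, spanned 5754 to 10451 (median 6604) on gelatin and 388 to 1042 (median 636) at day 14, and changed by -3.55 ± 0.36 (adjusted p = 6.05e-09), or 11.7-fold lower. A further Lox probe set fell as well (-2.85), and so did Loxl1 (-1.60 ± 0.14, percentile 24.6). Col5a2, a minor fibril-forming chain, spanned 2170.5 to 7744 (median 3252) on gelatin and 1120.5 to 2113 (median 1897) at day 14, and changed by -1.12 ± 0.37 (adjusted p = 0.0149). On gelatin its level was 7744 in replicate 1 and 5269 in replicate 2 against 2170.5 to 3490.2 in the rest, and without these replicates it was not called (-0.72). Pcolce, which enhances procollagen processing, changed by -0.31 ± 0.04.

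Col3a1, the collagen of soft stroma and vessels, rose 7.64-fold instead. It spanned 681 to 1152 (median 805) on gelatin and 4575 to 7345 (median 6686) at day 14, and 2 dimmer probe sets of the gene rose too (3.18 and 2.51). The prolyl hydroxylase genes P4ha1 (2.59 ± 0.36) and P4ha2 (1.02 ± 0.08), whose enzymes stabilise the collagen helix and are induced by low oxygen, rose with it. The main type I collagen genes were not called. Col1a1 spanned 1471 to 3004 (median 2545) on gelatin and 2222 to 3462 (median 2719) at day 14 with a change of 0.24 ± 0.20 (interval -0.17 to 0.64), and Col1a2 spanned 2394 to 7152 (median 3003) on gelatin and 3646 to 7211 (median 5736) at day 14 with 0.68 ± 0.31 (interval 0.05 to 1.31). A dimmer probe set of each was higher (0.34 and 0.20), and Col1a2 was called higher without gelatin replicates 1 and 2 (1.01).

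The small proteoglycans, measured here with periostin, held the largest matrix rises. Lum (lumican), which spaces collagen fibrils, spanned 208 to 248 (median 219.6) on gelatin and 4331 to 6629.7 (median 5228) at day 14, and changed by 4.54 ± 0.38 (adjusted p = 1.56e-10), or 23.3-fold higher. Dcn (decorin), which binds collagen and growth factors, spanned 356 to 433 (median 393) on gelatin and 2901 to 6754 (median 4446) at day 14, and changed by 3.52 ± 0.31. Postn (periostin), made by mesenchyme and valve cells, spanned 151 to 324 (median 181) on gelatin and 3433 to 5349 (median 4749) at day 14, and changed by 4.53 ± 0.38.

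Bgn (biglycan), a proteoglycan closely related to decorin, went the other way. It spanned 3444 to 5847 (median 3854) on gelatin and 690.1 to 1039.6 (median 879) at day 14, and changed by -2.23 ± 0.15 (adjusted p = 1.74e-12), and its dimmer probe set fell too (-1.10). Thus 3 of the 6 genes measured rose, Bgn fell and 2 were not called.

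Genes of matrix breakdown and its inhibitors were 6 lower and 1 higher of 14, with 7 not called. Timp1, a secreted inhibitor of matrix metalloproteinases, spanned 5780.1 to 10378 (median 6391) on gelatin and 1468 to 1657 (median 1607) at day 14, and changed by -2.13 ± 0.13 (adjusted p = 2.84e-13). Timp3, which is bound to the matrix, spanned 4930.1 to 7466 (median 6295) on gelatin and 975 to 1561 (median 1257) at day 14, and changed by -2.37 ± 0.28. Mmp3 (stromelysin 1) spanned 291 to 492 (median 461) on gelatin and 83.7 to 113 (median 93.3) at day 14, and changed by -2.09 ± 0.44 (adjusted p = 3.08e-04), with all its day 14 arrays below 223, the 25th percentile of all values, so that its call was lost with the floor set there. Plaur, the urokinase receptor (-0.59), Ctsk, a collagen-degrading cathepsin (-0.40), and Timp2 (-0.14) fell by less than 2-fold. Ctsl, the broad lysosomal cathepsin L, was the gene that rose (0.55 ± 0.08).

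Basement membrane and parietal endoderm genes were 9 higher, 4 lower and 6 not called of 19. Col4a1, a type IV collagen chain, spanned 1921 to 3482 (median 2617) on gelatin and 4942 to 10735 (median 8727) at day 14, and changed by 1.60 ± 0.28 (adjusted p = 3.58e-05). Its partner chain Col4a2 (0.94 ± 0.14) and the linker gene Nid2 (1.10 ± 0.18) rose as well. Pth1r, a receptor of parietal endoderm, spanned 121 to 148 (median 138) on gelatin and 845 to 2021 (median 1250.2) at day 14, and changed by 3.25 ± 0.22. Lama1 rose a little (0.49 ± 0.13), with overlapping arrays.

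Of the same list Thbd (thrombomodulin), found on parietal endoderm, endothelium and cultured fibroblasts, fell from 565 to 1382 (median 871) to 40.4 to 152 (median 91.0) (-3.30 ± 0.36), with 1 day 14 array at or below the floor. Nid1 (-1.35 ± 0.30), the linker related to Nid2, fell at a dim level (percentile 14.8), and the laminin chain genes Lama5 (-0.91 ± 0.12) and Lamb2 (-0.80 ± 0.12) fell too.

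**Figure D4:**
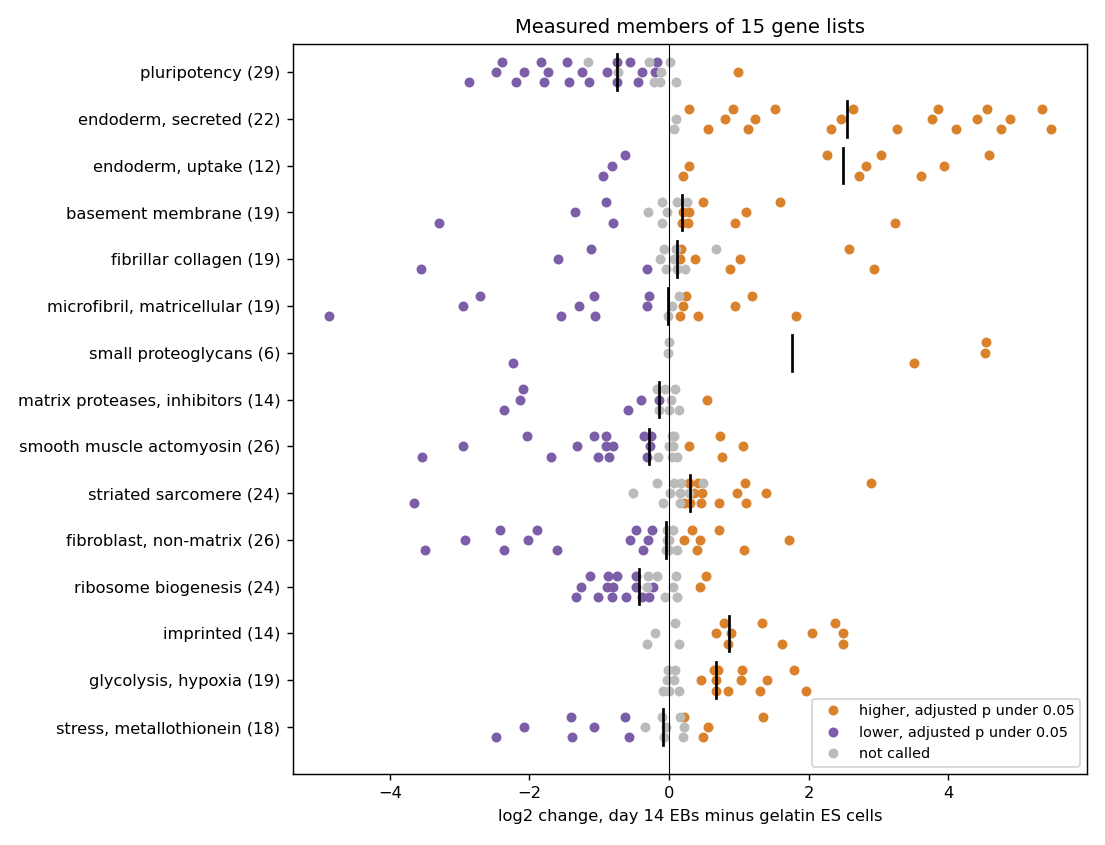
Log2 change from gelatin ES cells to day 14 EBs of each measured member of 15 gene lists (points, with the number measured in brackets), coloured by the call, with the list median as a bar. The medians of the endoderm, imprinted and glycolysis lists lie right of 0 and those of pluripotency and ribosome biogenesis left of 0, while the matrix and contractile lists hold calls on both sides.

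Fibroblast genes outside the matrix were 12 lower, 7 higher and 7 not called of 26, beside 24.1% lower and 22.8% higher among all genes. Their median log2 change was -0.04. Thy1, a surface glycoprotein of fibroblasts, spanned 1404 to 2041 (median 1803) on gelatin and 212 to 245 (median 225) at day 14, and changed by -2.93 ± 0.15 (adjusted p = 2.26e-14). Anxa1, a membrane-binding annexin, spanned 10275 to 15632 (median 11602) on gelatin and 1567 to 2854 (median 2356) at day 14, and changed by -2.43 ± 0.32. Cav1 (caveolin 1), the coat protein of caveolae, changed by -2.37 ± 0.21, though a dimmer probe set rose by 0.25. The receptor gene Axl (-2.02 ± 0.25) and the calcium-binding gene S100a4 (-1.89 ± 0.14) fell as well. Pdgfra, the PDGF receptor of mesenchyme and primitive endoderm, rose from 728 to 864 (median 809.9) to 2346 to 3151 (median 2565) (1.72 ± 0.14). The other rises were Cxcl12 (1.07), Tcf21 (0.72), Snai2 (0.45), Twist1 (0.40), Cd34 (0.33) and Nt5e (0.22). Vim (0.11) and Twist2 (-0.05) were among the genes not called. The count of lower genes was 11 without gelatin replicates 1 and 2, and 11 without replicates 3, 4 and 6.

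The matrix and contractile falls lay mainly between gelatin and day 4. Of the 16 matrix genes that fell by 2-fold or more, 10 had a day 4 mean at or below their day 14 mean, as had 3 of the 8 such contractile genes. Over the 24 matrix genes that fell, the median change was -1.53 from gelatin to day 4, -0.13 from day 4 to day 8 and 0.18 from day 8 to day 14. Over the 16 contractile genes it was -1.27, -0.12 and 0.07. The first and last steps share arrays with the main comparison. Lox stood at 7284 ± 1781 on gelatin, 581 ± 502 at day 4, 167 ± 87.2 at day 8 and 645 ± 247 at day 14 (mean ± SD, with 7 arrays at day 4 and 6 otherwise), and at 1482 ± 421 in sorted ES cells. Acta2 went from 14282 ± 2651 to 1712 ± 1037, 3590.4 ± 1216 and 4471 ± 1016, and stood at 5985 ± 550.5 in sorted cells. The mean of each was thus higher at day 14 than at its lowest point of the course.

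Other genes had their lowest mean at day 14. Mfap5 went from 2638 ± 453 to 534 ± 266, 162 ± 39.5 and 89.5 ± 7.09, and stood at 1739 ± 319 in sorted cells. Tagln went from 9548 ± 1748 to 1655 ± 446, 889 ± 76.5 and 817 ± 95.8, against 2544 ± 249 in sorted cells. Col3a1 fell first and then rose, from 859 ± 197 to 392 ± 81.5, 1842 ± 1209 and 6493 ± 986. Dcn rose mainly after day 8, from 699 ± 385 to 4630.0 ± 1359.

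**Figure D5:**
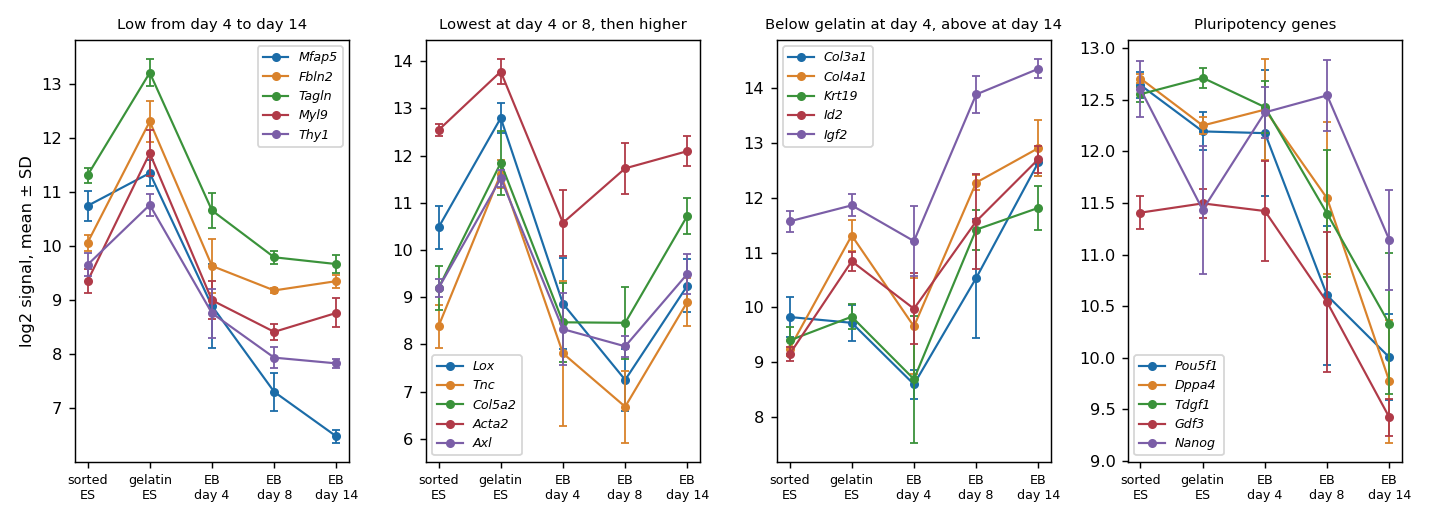
Mean log2 signal with SD in each of the 5 groups (6 arrays, 7 at EB day 4) for 5 genes per panel. Mfap5 and Tagln have their lowest mean at day 14, Lox, Tnc and Acta2 dip and partly return, Col3a1 and Col4a1 pass below and then above gelatin, and Pou5f1 and Dppa4 decline mainly after day 4.

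The interval between day 4 and day 8 shares no array with the main comparison, but its calls are not independent of it. The fit takes 1 estimate of the spread from all 5 groups, so gelatin and day 14 arrays entered the error of these calls. Arrays also differed within both days. At day 4 the visceral endoderm sum was 4894 in replicate 6 and 7049 in replicate 7 against 1653 to 1801 in the other 5, and at day 8 the ES marker sum was 26091 to 32527 in replicates 1, 3 and 5 and 12437 to 14615 in replicates 2, 4 and 6. Between these days 1123 genes were higher (13.6%) and 1070 lower (13%). Of the 310 genes at least 2-fold higher at day 14 than on gelatin, 217 (70.0%) were higher at day 8 than at day 4 and 0 lower, in limma at adjusted p under 0.05. Of the 279 genes at least 2-fold lower, 157 (56.3%) were lower and 8 higher. Among the 4380 genes not called between gelatin and day 14, 7.24% were higher and 7.15% lower. Day 4 to day 8 counts over all probe sets were 1479 higher and 1560 lower, and depended on the fit, with 887 and 919 when only these groups were fitted. The shares of the 310 and 279 genes are not given for that fit. Without day 4 replicates 6 and 7, 220 of the 310 genes were higher and 4 lower, and 188 of the 279 were lower and 9 higher, beside 20.4% higher and 20% lower among all genes. Without replicate 6 alone, 2069 probe sets were lower.

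Secreted endoderm proteins had the highest median change of the 33 gene lists. Of 22 genes for proteins that visceral endoderm and liver secrete, 20 were higher and 2 not called, and the median log2 change was 2.54. The count was 20 without either set of gelatin arrays, and 19 without replicates 1, 2 and 5. Apob, the core protein of lipoprotein particles, spanned 115 to 139.9 (median 120.4) on gelatin and 4025 to 9640.0 (median 5159) at day 14, and changed by 5.48 ± 0.31 (adjusted p = 1.22e-13). Rbp4, the retinol carrier, spanned 197 to 248 (median 218) on gelatin and 7574 to 10336 (median 8718) at day 14, and changed by 5.34 ± 0.27. Apoa1, the main protein of HDL, spanned 205 to 245 (median 230.0) on gelatin and 5278 to 9569 (median 6534) at day 14, and changed by 4.88 ± 0.25.

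Of the clotting genes in the list, those of prothrombin and fibrinogen rose, and F10 was not called (0.10). F2 (prothrombin) spanned 40.6 to 48.1 (median 43.8) on gelatin and 927 to 2177 (median 1417) at day 14, with all gelatin arrays under the floor, so that it was at least 23.5-fold higher. Fga, a fibrinogen chain, was likewise under the floor on all gelatin arrays and at least 13.7-fold higher, and Fgb rose from 88.8 to 137 (median 99.4) to 1697 to 2768 (median 2233) (4.42 ± 0.20). Spink1, a trypsin inhibitor (3.85 ± 0.46), Igfbp1, an IGF-binding protein of liver (4.75 ± 0.20), the HDL-associated gene Apom (3.27 ± 0.24) and Gpc3, a surface proteoglycan of embryonic and yolk sac tissue (4.11 ± 0.22), were also among the 20 largest rises. A dim probe set of Apom was not called (-0.32), and one of Igfbp1 rose by 0.25.

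Srgn (serglycin), the gene with the highest fitted change, encodes a proteoglycan of secretory granules. It spanned 43.5 to 64.3 (median 56.3) on gelatin and 3159 to 7579 (median 6848) at day 14, with 4 of 6 gelatin arrays under the floor, and was at least 92.5-fold higher with these raised to the floor. In sorted ES cells its mean was 273 ± 63.4. Nrk, a kinase gene of placenta and embryo, spanned 23.1 to 59.2 (median 34.7) on gelatin and 341 to 1584 (median 1186) at day 14, with day 14 replicate 2 at the low end, and was at least 16.7-fold higher. Tspan8, a tetraspanin of gut-type epithelia, went from 29.6 to 43.8 (median 36.4), all under the floor, to 856 to 1605 (median 1307), or at least 20.3-fold higher. Vil1 (villin), which bundles actin in microvilli, rose from 58.1 to 74.4 (median 64.2) to 864 to 1389 (median 1206), with 2 of 6 gelatin arrays under the floor, or at least 17.4-fold.

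Genes for uptake and surface proteins of yolk sac endoderm were 9 higher and 3 lower of 12. The lower genes were Lrp2 and the cell adhesion genes Cdh1 (-0.63) and Epcam (-0.94). Cubn (cubilin), a receptor that takes up carrier proteins, spanned 171 to 246 (median 214) on gelatin and 3964 to 6384 (median 4884) at day 14, and changed by 4.58 ± 0.41 (adjusted p = 4.48e-10). Dab2, the adaptor that brings such receptors into clathrin-coated pits, changed by 3.04 ± 0.41, the calcium-binding gene S100g by 3.61 ± 0.24, the lysosomal protease gene Ctsh by 3.95 ± 0.36, the metal transporter gene Slc39a8 by 2.72 ± 0.22 and the surface protease gene Tmprss2 by 2.82 ± 0.17. Lrp2 (megalin), the partner receptor of cubilin, instead fell from 686 to 1206 (median 952) to 492 to 588 (median 516) (-0.81 ± 0.11). A dim Cubn probe set was not called (0.08). The list had 8 higher genes without gelatin replicates 3, 4 and 6 and 9 without replicates 1 and 2.

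Of 13 endoderm transcription factor genes measured 7 were higher, 1 lower and 5 not called. The lower gene, Prox1 (-0.22), lost its call without gelatin replicate 3, 4 or 6 or day 14 replicate 1 or 5. Foxa1 rose from 137 to 307 (median 181) to 582 to 853 (median 773) (1.98 ± 0.16), Foxa3 changed by 1.03 ± 0.13, Foxa2 by 0.79 ± 0.07, Sox17 by 0.79 ± 0.10, Hhex by 0.59 ± 0.08 and Gata6 by 0.49 ± 0.09. Gata4 was not called, at 688 to 843 (median 755) on gelatin and 625 to 772 (median 732) at day 14 (interval -0.19 to 0.06).

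Pluripotency genes fell in 20 of 29 cases measured, 1 rose and 8 were not called, with a median log2 change of -0.75. The gene that rose was Tbx3 (0.99). Sox2 was not called, with a mean of 5943 on gelatin and 6045 at day 14 (0.02). Zfp42 (-1.16), Klf4 (-0.74), Nr5a2 (-0.21), Nr0b1 (-0.12), Sox15 (-0.12), Tcl1 (0.10) and Nanog were not called either. Pou5f1, the gene of OCT4, spanned 3908 to 5253 (median 4921) on gelatin and 691 to 1485 (median 969) at day 14, and changed by -2.19 ± 0.26 (adjusted p = 9.43e-08). A dimmer Pou5f1 probe set was not called (0.09). Dppa2, of a chromatin-binding pair with Dppa4, spanned 3208 to 3704 (median 3507) on gelatin and 240.0 to 1097 (median 456) at day 14, and changed by -2.87 ± 0.33, and Dppa4 by -2.48 ± 0.27. The NODAL co-receptor gene Tdgf1 (-2.39 ± 0.24), the TGFβ family gene Gdf3 (-2.08 ± 0.22) and Nodal itself (-1.83 ± 0.16) fell without overlap of the arrays. Without gelatin replicates 3, 4 and 6 the count was 14 lower, and without replicates 1 and 2 it was 20.

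Nanog, a homeobox gene of self-renewal, was not called. It spanned 1365 to 4351 (median 3301) on gelatin and 1472 to 3937 (median 2198) at day 14, with a change of -0.29 ± 0.23 (interval -0.77 to 0.19). Its gelatin level was 1365 in replicate 1 and 1984 in replicate 2 and at least 3210.5 in the others, and without these replicates it was called lower (-0.67). A dimmer Nanog probe set was lower with all arrays (-0.73). Of 8 ES markers 5 were lower and none was higher. The summed ES markers of day 14 replicate 6, at 13540.0, were the highest of its group.

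Imprinted genes, many of which control fetal growth, were called higher and never lower. Of 14 imprinted genes measured 10 were higher and 4 not called, and the median log2 change was 0.87. The count was 10 without either set of gelatin arrays. Igf2, a fetal growth factor, spanned 2971 to 4329.8 (median 3742) on gelatin and 17518 to 24045 (median 21393) at day 14, and changed by 2.50 ± 0.21 (adjusted p = 1.75e-10). Dlk1, a Notch-related membrane protein of progenitors, changed by 2.49 ± 0.22, the dystrophin complex gene Sgce by 2.37 ± 0.23, the cell cycle inhibitor gene Cdkn1c by 2.05 ± 0.28, Mest by 1.63 ± 0.25, the noncoding RNA gene Meg3 by 1.34 ± 0.27 and Igf2r, whose receptor clears IGF2, by 0.89 ± 0.13. Dim or less bright probe sets of Igf2 and Meg3 were not called.

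Within the IGF axis the binding proteins split, with Igfbp1 and Igfbp4 (0.80 ± 0.11) higher, and Igfbp7, Igfbp3 and Igfbp6 (-0.20) lower. Igfbp7 spanned 1913 to 3529 (median 1974) on gelatin and 266 to 444 (median 341) at day 14, and changed by -2.68 ± 0.30, and Igfbp3 spanned 4159 to 6836 (median 5322) on gelatin and 1544 to 2753 (median 1986) at day 14, and changed by -1.37 ± 0.16. Of 11 genes of the axis 5 were higher and 3 lower. Igf1 changed by 0.18 ± 0.06, and lost its call with each array centred on its median (0.14).

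Neural genes were 7 higher, 6 lower and 12 not called of 25, near the 22.8% and 24.1% of all genes. Zic1, a zinc finger gene of the dorsal neural tube, spanned 174 to 271 (median 229.5) on gelatin and 1073 to 3110.1 (median 2462) at day 14, and changed by 3.20 ± 0.33 (adjusted p = 9.18e-09). Fabp7, of radial glia, spanned 223 to 405 (median 260.4) on gelatin and 569 to 4447 (median 2532) at day 14, and changed by 2.88 ± 0.43. Dlx1, of forebrain interneurons, changed by 1.79 ± 0.13, and Sox11, of immature neurons, by 1.10 ± 0.20. Nes (nestin), an intermediate filament of neural progenitors that spread cultured cells also express, fell from 3391 to 5264 (median 4529) to 619 to 1139 (median 953) (-2.30 ± 0.14), and Stmn2, a tubulin regulator, changed by -1.98 ± 0.24. A dimmer Nes probe set was not called (0.12), and of those of Stmn2, 1 fell (-0.61) and 1 was not called (0.05). Pax6 spanned 180.4 to 272 (median 212) on gelatin and 174 to 503 (median 325) at day 14 and was not called (interval -0.18 to 1.08).

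Endothelial genes were 7 higher and 2 lower of 14. Cdh5 (VE-cadherin), of endothelial junctions, spanned 155 to 175 (median 167) on gelatin and 686 to 981 (median 869) at day 14, and changed by 2.36 ± 0.25, and Cldn5, of tight junctions, by 1.78 ± 0.12. The receptor genes Tek (0.93 ± 0.17), Kdr (0.84 ± 0.11) and Flt1 (0.52 ± 0.06) rose too. Eng (endoglin), a TGFβ co-receptor that fibroblasts carry too, changed by -1.49 ± 0.13.

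Blood genes were 7 higher and 1 lower of 19, and the embryonic globins led them. Hba-x (zeta globin) spanned 183 to 215 (median 202) on gelatin and 323 to 1326 (median 805) at day 14, and changed by 1.88 ± 0.40. Hbb-y (epsilon globin) spanned 439 to 554 (median 469) on gelatin and 587 to 3221 (median 1689.7) at day 14, and changed by 1.70 ± 0.41, and the day 8 means were 1858 ± 1601 and 3567 ± 2863. Globin genes are close copies, which the probe sets could in part share. Tal1, at percentile 9.93, changed by 0.22 ± 0.08 and lost its call with median centring (0.18), as it did without either set of gelatin arrays.

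Epithelial genes were 5 higher, 2 lower and 7 not called of 14. Krt19 (1.99 ± 0.35) and Krt18 (1.32 ± 0.23), keratins of simple epithelia, rose, and the tight junction genes Ocln (1.82 ± 0.19) and Cldn6 (1.46 ± 0.28) rose with them. Krt8, the partner of Krt18, spanned 4338 to 5476 (median 5279) on gelatin and 5096 to 6693 (median 5820.0) at day 14 and was not called (interval -0.18 to 0.50). Of 9 trophoblast genes 3 were higher and 2 lower, beside 22.8% and 24.1% of all genes. Ets2 (1.38 ± 0.18) and Tpbpa (1.24 ± 0.18) were among the rises. Of 16 primitive streak genes 4 were higher, led by the inhibitor gene Cer1 (2.01 ± 0.22), and 2 lower, with the higher share near the 22.8% of all genes. The lower count was 1 without gelatin replicate 3, where Cdx1 lost its call, and 0 without replicates 3, 4 and 6.

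All 4 measured Id genes, direct targets of BMP signals, rose, with Id2 at 1.87 ± 0.29, Id4 at 1.85 ± 0.16, Id3 at 0.99 ± 0.15 and Id1 at 0.69 ± 0.12, among 10 higher and 3 lower of 24 TGFβ and BMP genes. Inhba, the activin A subunit, fell from 1921 to 8565 (median 4000.4) to 1247 to 1670.1 (median 1348) (-1.54 ± 0.23), and was highest in gelatin replicates 1 and 2. Of 18 WNT genes 8 were higher and 2 lower, and the secreted inhibitors Dkk1 (1.65 ± 0.11), Frzb (1.41 ± 0.11), Sfrp1 (1.02 ± 0.29) and Sfrp2 (0.51 ± 0.06) were among the rises. Homeobox genes were 5 higher and 7 lower of 23, beside 22.8% and 24.1% of all genes. Meis1 (1.15 ± 0.17, percentile 8.06) was the largest rise and Hoxa5 (-0.72 ± 0.09) the largest fall.

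Genes of glycolysis and of the response to low oxygen were 12 higher and 7 not called of 19, with a median log2 change of 0.67. The count was 11 without either set of gelatin arrays, and 10 without replicates 1, 2 and 5. Tpi1 spanned 4967 to 6218 (median 5315) on gelatin and 13544 to 15511 (median 14112) at day 14, and changed by 1.40 ± 0.16, and the phosphofructokinase gene Pfkp changed by 1.97 ± 0.21. Bnip3, a mitophagy receptor induced by hypoxia, changed by 1.79 ± 0.20, Aldoc by 1.30 ± 0.29 and the vessel growth factor gene Vegfa by 1.04 ± 0.11. Hk2, which traps glucose, was not called (interval -0.27 to 0.23).

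Ribosome assembly genes fell in 15 of 24 cases and rose in 2, with a median log2 change of -0.42. The lower count was 14 without gelatin replicates 3, 4 and 6 and 15 without replicates 1 and 2. Rrn3, which starts ribosomal RNA synthesis, spanned 5228 to 7374 (median 5931) on gelatin and 2084 to 2712 (median 2398) at day 14, and changed by -1.33 ± 0.16, and Ppan (-1.26 ± 0.15), Nhp2 (-1.13 ± 0.11) and Nop16 (-1.01 ± 0.10) fell as well. Ncl (0.10) and Npm1 (0.12), the abundant nucleolar proteins, were not called. Myc, which drives this programme, fell from 565 to 748 (median 677) to 281 to 348 (median 305) (-1.11 ± 0.17), and Mycn was not called (-0.32).

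Cell cycle genes split. In the Myc and cell cycle list 5 were higher and 9 lower of 18, with Ccnd2 (2.06 ± 0.17) higher and Ccnd1 (-1.09 ± 0.24) lower among the D cyclins. A dimmer Ccnd1 probe set was not called (-0.11). The p53 regulator gene Mdm2 (-1.34 ± 0.12) and the senescence-linked inhibitor genes Cdkn2a (-0.92 ± 0.14) and Cdkn2b (-3.39 ± 0.26) fell. DNA replication genes were 9 higher and 8 lower of 24, each by less than 2-fold. Mitosis genes were 5 higher and 4 lower of 18, near the 22.8% and 24.1% of all genes.

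Stress genes were 4 higher and 7 lower of 18. Nqo1, a quinone reductase of the NRF2 response, spanned 626 to 818 (median 693) on gelatin and 110.4 to 181 (median 120.2) at day 14, and changed by -2.47 ± 0.24 (adjusted p = 2.73e-09). Of the other genes in the list that NRF2 is known to induce, Txnrd1 (-1.41 ± 0.13), Srxn1 (-1.39 ± 0.10) and Gclm (-1.07 ± 0.11) fell, Hmox1 rose (0.22) and Gclc was not called (-0.10). The stress-induced Nupr1 fell (-2.08 ± 0.17). The metallothionein genes Mt1 (1.34 ± 0.16) and Mt2 (0.56 ± 0.08) rose. Of 13 cholesterol synthesis genes 6 were higher, led by Hmgcs1 (1.17 ± 0.37), and of 20 lysosomal genes 9 were higher and 4 lower. Interferon and MHC genes were 3 higher, B2m (0.80 ± 0.16) among them, and 5 lower of 14, beside 22.8% and 24.1% of all genes.

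The day 14 arrays agreed closely with one another for most genes, while several genes of single lineages were uneven among them. The median SD over 5737 genes outside the dimmest 40% was 0.13 on the log2 scale at day 14 and 0.13 on gelatin. Zic1 at day 14 stood at 3110.1, 3088 and 2980.2 in replicates 1, 3 and 5 and at 1073 in replicate 4, and Fabp7 was lowest in replicate 4 as well, at 569. Tdgf1 was lowest in replicate 1, at 623, and highest in replicate 6, at 2686, and Dppa2 and Dppa4 had the same lowest and highest arrays. Hbb-y ran from 587 in replicate 5 to 3221 in replicate 2.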

How the data were processed

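RNA from 31 arrays was analysed, and the 6 arrays of gelatin ES cells and 6 of day 14 EBs were compared. The authors deposited 1 normalised intensity per probe set and array, computed in dChip; its version and model are not given in the sources used here. No read depth applies, and the number of arrays limits the precision. Array medians ran from 588 to 625 on gelatin and from 613 to 638 at day 14. Of 12488 probe sets 66 controls were left out. GEO's platform annotation gave 10833 of the rest 1 symbol, 396 several and 1193 none, and only the first were named. Gene names can be old.

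Intensities under the 5th percentile (59.6) were raised to it and log2 transformed. limma 3.58.1 in R 4.3.3 was fitted to all 5 groups (lmFit, eBayes), with Benjamini-Hochberg adjustment over 12422 probe sets. The exact permutation tests of RNA ratios went through all 924 splits of the 12 arrays, in Python 3.11.15 with numpy 2.4.6. The script was tested on simulated data before use.

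Members and gene lists were chosen with earlier results of these data known. Named genes were the 20 largest changes each way among genes whose groups did not overlap, for each list up to 6 called genes that moved most and the first 2 measured, and every matrix or contractile member called lower. Csrp1, Csrp2, Des, Ldb3, Myl6, Myom1, Vcan, Igfbp6, F10, Flna, Zyx, Hmox1, Gclc, Prox1, Fap, Cdh1 and Epcam, where outside that rule, were named after their values were seen. The same holds for Lgals1, Cxcl12, Tcf21, Snai2, Twist1, Twist2, Cd34, Nt5e, Vim, Sox2, Tbx3, Zfp42, Klf4, Nr5a2, Nr0b1, Sox15 and Tcl1. Replicate numbers were not taken to pair the samples: same-numbered gelatin and day 14 arrays correlated at -0.303 to 0.240 in their deviations from the group means, and day 4 and day 8 arrays at -0.122 to 0.432, so that not every pair was over 0.1. Alternatives changed the floor, scaling, filter, block, weights, groups fitted and probe set rule, and left out arrays.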

Additional observations from a re-analysis of the deposited data

Results flagged for a closer look

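In 21 of 512 groups of 6 arrays, 1 array's signal lay farther from the other 5 than Dixon's 95% critical value for groups of this size allows. Chance flags about 1 in 20 groups. On the day 14 arrays the highest value stood apart for Actn1 in replicate 2 (8979), Actn4 in replicate 2 (2837), Ccl7 in replicate 5 (60.5), Cnn3 in replicate 3 (8332), Foxa2 in replicate 4 (1761), Inhba in replicate 1 (1670.1), Nhp2 in replicate 6 (5066) and Nqo1 in replicate 6 (181). On the gelatin arrays the highest value stood apart for Apob in replicate 4 (139.9), Ctsh in replicate 1 (392), Fgb in replicate 3 (137), Ltbp1 in replicate 1 (743), Tmprss2 in replicate 4 (279.6) and Tnnt2 in replicate 1 (129). On the day 14 arrays the lowest value stood apart for Col3a1 in replicate 6 (4575), Gata4 in replicate 5 (625), Hk2 in replicate 6 (9738), Nrk in replicate 2 (341) and Spink1 in replicate 1 (10771). On the gelatin arrays the lowest value stood apart for Krt8 in replicate 1 (4338) and Nsdhl in replicate 6 (457). No cause was tested for any of these values.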

How the results depend on the processing

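The counts depended on the fit more between day 4 and day 8 than between gelatin and day 14. Leaving out dim probe sets gave 1788 probe sets higher at day 14, since fewer were tested. Between day 4 and day 8, a fit of these groups alone gave 887 higher and 919 lower, array weights gave 2676 and 2521, and leaving out day 4 replicates 6 and 7 gave 2246 and 2409, and the cause was not tested. Mvk, not called in the report's fit (0.14), was -0.22 with the mean of its probe sets. Leaving out 1 array gave 2395 to 2760 higher and 2681 to 2907 lower at day 14, and 1233 to 1846 higher and 1312 to 2069 lower between day 4 and day 8. It gave 12 to 14 sarcomere and 19 to 20 secreted endoderm genes higher, and 18 to 21 pluripotency, 14 to 16 smooth muscle, 7 to 9 microfibril, 5 to 6 protease, 15 to 16 ribosome and 12 fibroblast genes lower. A fit with the replicate block called 2768 probe sets higher and 2940 lower for day 14 against gelatin, and 1730 and 1783 for day 8 against day 4. The block ended the calls of Hoxa2 (-0.25) and Nkx2-5 (0.23). The alternatives that left out several gelatin or day 4 arrays were chosen after seeing the data. Of 232 called genes that the naming rule picked, 195 kept their call under every alternative run.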
